A study of Mus musculus with 4 samples.

Results

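The genes described here are 39 listed genes of DNA replication, measured in blood-forming stem and progenitor cells with and without a knockdown of the microRNA miR-99. The list covers origin licensing, fork proteins, DNA polymerases and nucleotide supply. All 39 were found among 45232 gene rows, 1 row each, and all 39 passed the filter on low counts that left 15320 genes for testing. The list was drawn by function, though genes and lists were chosen with earlier results of these data known.

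RNA was sequenced from GFP+ LSK cells, the lineage-negative fraction of mouse blood-forming tissue that carries the receptor Kit and the surface protein Sca-1, which holds stem cells and their early progeny. The cells were sorted 3 months after long-term haematopoietic stem cells (LT-HSCs) were transplanted. The transplanted GFP+ cells carried the miR-99 knockdown (miR-99 KD, 2 libraries) or a scrambled control (Scr, 2 libraries), with 2 mice in each group. Both groups thus share transplantation, engraftment and GFP marking. The sources used here give neither the mice's strain, age and sex nor the vector behind the knockdown. The comparison asks how RNA levels in engrafted cells differ with the knockdown. With 2 libraries per group, an exact permutation test of a single value cannot go below p = 0.333, so the tests below come from models fitted across all genes.

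The miR-99 family has 3 mature members in mouse with one common seed, the stretch that pairs with target RNAs. Which of the 3 the knockdown lowered was not measured here. They are shown with the seed (bases 2 to 8) in capitals, from RefSeq on GRCm38.p6.
mmu-miR-99a-5p (chr16:77598940-77598961, plus strand): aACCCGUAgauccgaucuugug
mmu-miR-99b-5p (chr17:17830194-17830215, plus strand): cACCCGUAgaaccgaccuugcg
mmu-miR-100-5p (chr9:41531437-41531458, plus strand): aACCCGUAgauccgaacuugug
A DNA match to this seed, TACGGGT, was searched in the annotated 3′ untranslated regions of at least 50 bases. None of the 38 replication genes with such a region held it, against 190 of 12817 tested genes (1.48%). No match says only that these letters are not in these regions. No library held a count for Mir100, Mir99a or Mir99b, so the knockdown cannot be checked with them. Counts of Mir99ahg, from which miR-99a is processed, were 132 and 195 in miR-99 KD and 397 and 411 in Scr (log2 difference -1.07, SE 0.31, edgeR adjusted p 0.248). Whether this transcript follows the knockdown was not tested, so it is no check of the knockdown either.

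Origins are licensed in G1, when the origin recognition complex, Cdc6 and Cdt1 load the ring-shaped MCM2-7 complex onto DNA. In S phase Cdc45 and the GINS complex join it to form the active CMG helicase, and polymerases, the sliding clamp PCNA and its loader RFC copy both strands. Many of these genes are transcribed under E2F factors as cells enter S phase. Most long-term stem cells are quiescent, whereas their progeny within the LSK fraction and the erythroid progenitors that follow divide often. In bulk samples such as these, fewer cells of a type and less RNA per cell cannot be told apart.

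Gene counts per library were 27295197 to 27314881 for miR-99 KD and 28422748 to 32350590 for Scr, and 19060 to 19239 genes were detected in miR-99 KD and 19717 to 23052 in Scr. Levels below are CPM, counts per 1000000 after TMM scaling between libraries. One library stood apart in cell markers. The 12 neutrophil genes listed summed to 29231 CPM in miR-99 KD 1 and 5259 CPM in miR-99 KD 2, against 6182 to 8268 CPM in Scr, and the 12 B cell genes to 335 CPM and 99.3 CPM in the same miR-99 KD libraries, against 45.1 to 93.5 CPM in Scr. Each gene of both lists peaked in miR-99 KD 1, and none was at 0 in all libraries. The 9 macrophage genes summed to 492 and 329 CPM in miR-99 KD and 186 to 471 CPM in Scr, and of 9 T and NK cell genes 3 passed the filter. The 15 erythroid genes summed to 15350.3 and 17042 CPM in miR-99 KD and 9993 to 10604 CPM in Scr, and the 15 stem cell genes to 550.2 and 703 CPM in miR-99 KD and 993 to 1189 CPM in Scr. A further list, named sort genes, holds the 6 surface marker genes Kit, Ly6a, Cd34, Flt3, Cd48 and Ptprc. Of these, the LSK definition above names Kit and Sca-1, the product of Ly6a. In 5 of the 6 both miR-99 KD libraries lay below both Scr libraries and in 0 above, against 26.0% and 24.5% of all genes. Kit measured 670.3 and 774 CPM in miR-99 KD and 1149 and 1280.3 CPM in Scr. Flt3 was at 121 and 80.5 CPM in miR-99 KD and 152 and 359 CPM in Scr, so the Scr libraries were far apart. Cd34 had 350.3 and 276 CPM in miR-99 KD and 673 and 895 CPM in Scr. Ly6a had 12.4 and 22.3 CPM in miR-99 KD and 46.5 and 22.8 CPM in Scr, a near tie between miR-99 KD 2 and Scr 2. The part that these differences in makeup play in the replication genes was not tested, and results are given below with and without miR-99 KD 1.

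**Figure D1:**
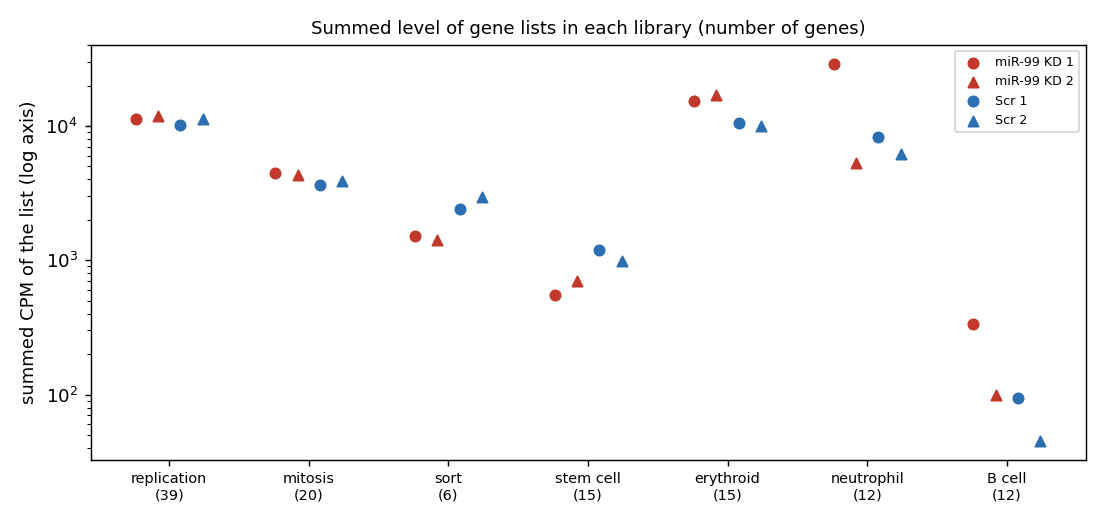
Summed CPM (log axis) of the 39 replication genes, 20 mitosis genes and 5 marker lists in each library, with red for miR-99 KD, blue for Scr, circles for library 1 and triangles for library 2. The replication sums lie between 10233 and 11940.4 CPM, while the neutrophil sum of miR-99 KD 1, at 29231 CPM, stands far above the other 3 libraries.

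The summed level of the 39 genes was 11277 and 11940.4 CPM in the miR-99 KD libraries and 10233 and 11260.0 CPM in the Scr libraries, so the groups lay close and miR-99 KD 1 lay close to Scr 2. The miR-99 KD libraries were both higher than either Scr library in 4 of 5 licensing genes, in Cdc45 and in 5 of 5 genes of nucleotide supply. The groups overlapped in 6 of 6 subunits of the MCM2-7 helicase and 5 of 5 polymerase and primase genes, and both listed subunits of the histone chaperone CAF-1 lay below. These roles were not tested against one another. Of all genes tested, 24.5% lay above, 26.0% lay below and the rest overlapped. The lower miR-99 KD library exceeded the higher Scr library in 17 of the 39 genes (43.6%), against 24.5% of all genes tested. The reverse held in 3 (7.69%), against 26.0% of all genes tested, and 19 overlapped. With libraries scaled by their totals alone, 12 genes lay above and 8 below, against 18.05% and 31.9% of all genes. On that scale Rrm1 and Tk1 of nucleotide supply overlapped, and Mcm3 and Pole lay below. The splits by role given above thus hold for TMM scaling.

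No difference passed the main test, the quasi-likelihood test of edgeR, adjusted over all genes by Benjamini-Hochberg, which called 0 of the 39 and 0 of 15320 genes (0.00%) at an adjusted p of 0.05. The lowest adjusted p over all genes was 0.191. At an unadjusted p under 0.05 the same fit counted 5 of the 39 higher and 1 lower, where 5.97% of all genes were higher and 9.63% lower. The 5 were Cdc45, Dut, Orc6, Rrm2 and Cdc6, and the 1 was Chaf1b. With libraries scaled by their totals alone the split was 1 higher and 2 lower. DESeq2, run as an alternative, called 1 of the 39 higher and 0 lower, against 1.68% of all genes higher and 4.16% lower. That gene was Cdc45. The median log2 difference of the 39 genes was 0.11, beside 0.02 over all genes tested, and the individual values ran from -0.34 to 0.71. A difference above 0.5 in size on the log2 scale was seen in 2 of the 39 genes, Cdc45 and Dut, and in 33% of all genes. The shares of all genes are not matched for level or spread. The median within-group SD of log2(CPM + 1) was 0.147 (miR-99 KD) and 0.097 (Scr) for the 39 genes. Over all genes tested it was 0.199 and 0.137.

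**Figure D2:**
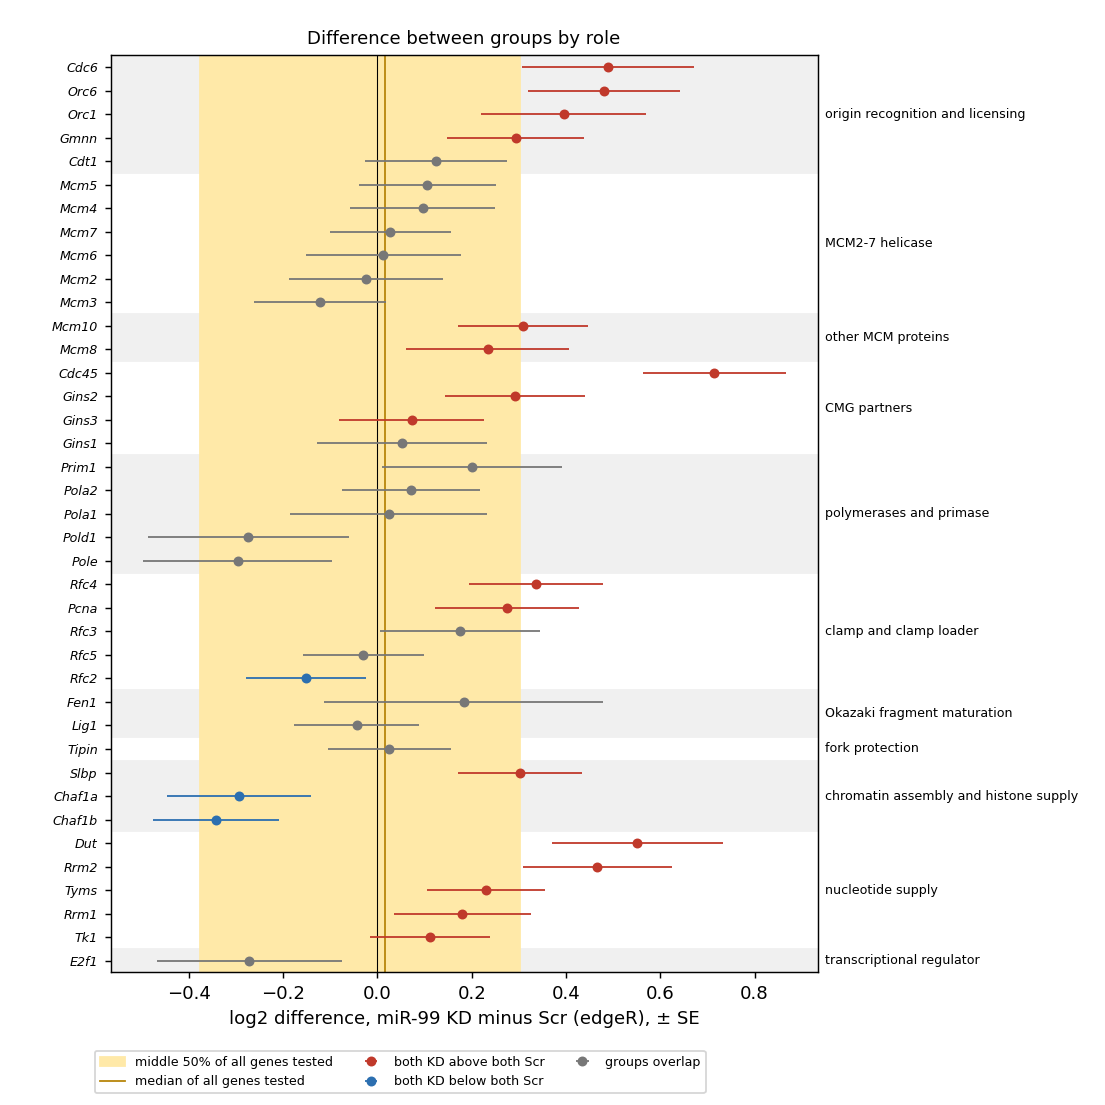
Log2 difference (miR-99 KD minus Scr) with its SE from edgeR for each gene, grouped by role, on a shaded band that spans the middle 50% of all genes tested. Red points have both miR-99 KD libraries above both Scr libraries, blue points both below, and grey points overlap. Points for licensing and nucleotide supply lie right of 0 and MCM2-7 points lie between -0.12 and 0.11, with Cdc45 farthest right at 0.71 and Chaf1b farthest left at -0.34.

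Of the 5 licensing genes, 4 had both miR-99 KD libraries above both Scr libraries, against 24.5% of all genes. Cdc6 (ENSMUSG00000017499), the ATPase that helps load the helicase, was at 272 and 339.7 CPM in miR-99 KD and 195 and 240.3 CPM in Scr. Its groups did not overlap, with miR-99 KD 2 highest and Scr 1 lowest. The log2 difference came to 0.49 ± 0.18 (SE, n = 2 per group), a 1.40-fold level with an edgeR adjusted p of 0.307. Orc6 (ENSMUSG00000031697), the smallest subunit of the origin recognition complex, had 127 and 161 CPM in miR-99 KD and 102 and 105 CPM in Scr. The Scr libraries were nearly equal and the miR-99 KD libraries were spread, for a log2 difference of 0.48 ± 0.16 and an edgeR adjusted p of 0.280. Orc1 (ENSMUSG00000028587), the largest subunit, came to 74.7 and 82.1 CPM in miR-99 KD and 52.9 and 66.4 CPM in Scr. Geminin, the inhibitor of Cdt1 that blocks a second round of licensing, is encoded by Gmnn and measured 128 and 151 CPM in miR-99 KD and 118 and 110.0 CPM in Scr. Cdt1 itself, the loader that geminin inhibits, was at 145 and 175 CPM in miR-99 KD and 144 and 149.9 CPM in Scr, and its groups overlapped. Each of the 5 peaked in miR-99 KD 2.

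The 6 genes of the helicase that these factors load overlapped between groups. None of them separated after TMM scaling, and their median log2 difference was 0.02, with a range of -0.12 to 0.11. Mcm6 (ENSMUSG00000026355), the most abundant of the 39 genes per length, had 1218 and 1506 CPM in miR-99 KD and 1274 and 1426 CPM in Scr. The miR-99 KD libraries bracketed the Scr libraries, and the log2 difference was 0.01 ± 0.16 (SE, n = 2 per group). Mcm3 came to 635 and 569.8 CPM in miR-99 KD and 621 and 689 CPM in Scr. Mcm5 had 602 and 551 CPM in miR-99 KD and 497 and 574 CPM in Scr. Their signs differ and both overlap, but with libraries scaled by their totals alone Mcm3 was lower in both miR-99 KD libraries. The summed level of the 6 was 4111 and 4325 CPM in miR-99 KD and 3919.8 and 4449 CPM in Scr. Mcm2, Mcm4 and Mcm7 had log2 differences of -0.02, 0.10 and 0.03, each smaller than its SE. The signs of Mcm2, Mcm4, Mcm5, Mcm6 and Mcm7 turned in at least 1 fit that left out a library, and those of Mcm6 and Mcm7 with libraries scaled by their totals alone.

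Of the 4 partners that turn the ring into an active helicase, DESeq2 called Cdc45 higher and edgeR called 0. Cdc45 (ENSMUSG00000000028), which joins MCM2-7 and GINS to start unwinding, measured 123 and 149 CPM in miR-99 KD and 84.2 and 81.4 CPM in Scr. The groups did not overlap, and the gap between them was wider than the spread within either. Its log2 difference of 0.71 ± 0.15 (SE, n = 2 per group), a 1.64-fold level, was the largest of the 39 genes and had the smallest p. The edgeR adjusted p was 0.216 and the DESeq2 adjusted p 0.0044. Leaving out 1 library at a time gave log2 differences of 0.57 to 0.84. DESeq2 lost its call of Cdc45 with a replicate block and in some fits that left out a library. The 3 listed GINS subunits, which hold Cdc45 to the ring, had smaller differences. Gins2 was at 70.5 and 79.3 CPM in miR-99 KD and 63.2 and 59.1 CPM in Scr, without overlap. Gins3 had 47.4 and 50.9 CPM in miR-99 KD and 46.1 and 47.4 CPM in Scr, a near tie between miR-99 KD 1 and Scr 2. Gins1 overlapped, with a log2 difference of 0.05, and the signs of both turned with libraries scaled by their totals alone. Of the MCM proteins outside the ring, Mcm10, which helps activate the helicase, had 158 and 182 CPM in miR-99 KD and 137 CPM in both Scr libraries. Mcm8, which acts in recombination, came to 49.0 and 59.8 CPM in miR-99 KD and 45.9 and 46.7 CPM in Scr.

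**Figure D3:**
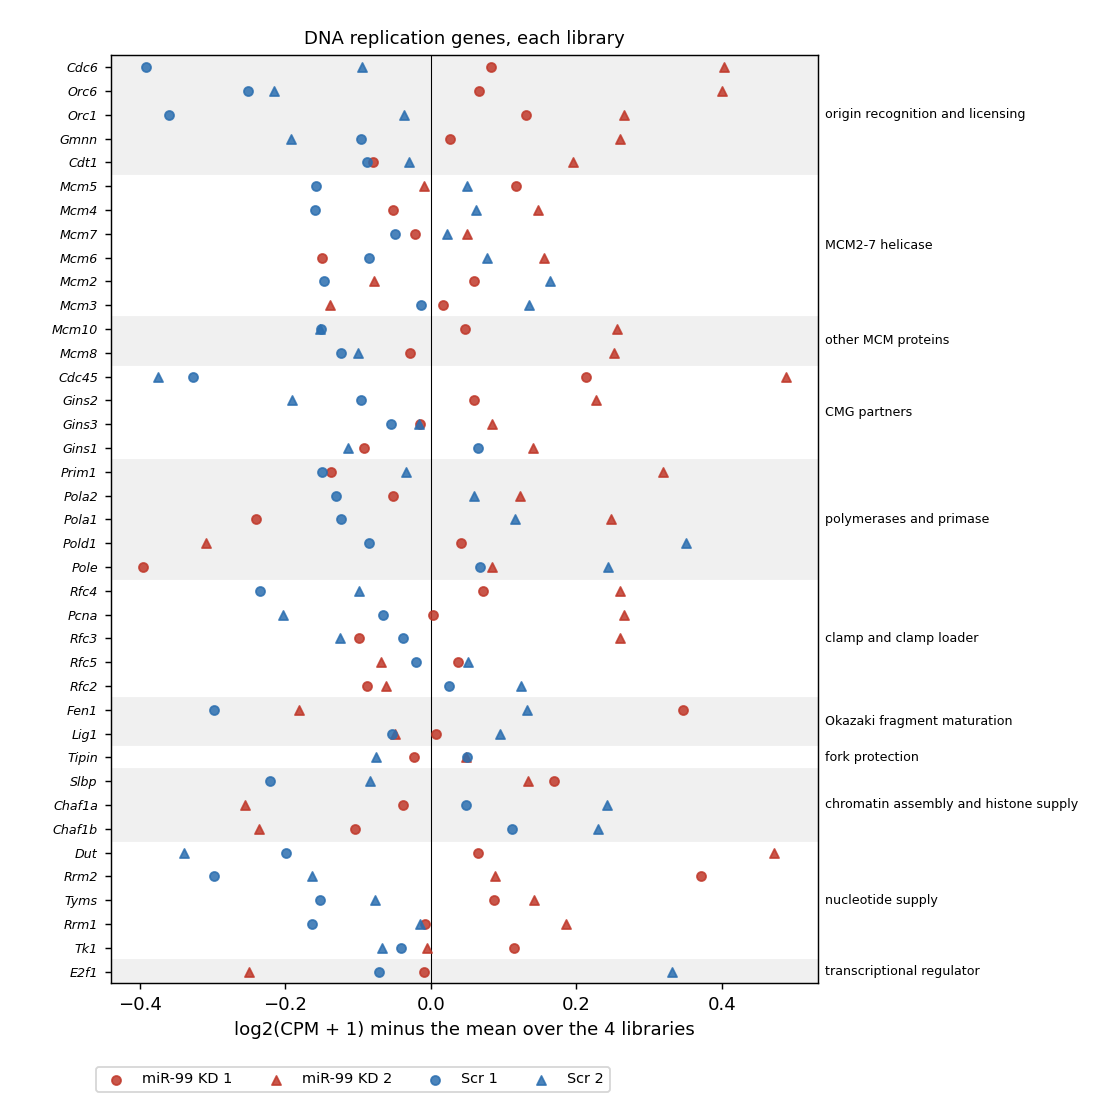
Log2(CPM + 1) of each gene in each library minus its mean over the 4 libraries, grouped by role, with red for miR-99 KD and blue for Scr, circles for library 1 and triangles for library 2. Red triangles lie farthest right in 23 of the 39 genes and blue circles farthest left in 19.

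In nucleotide supply all 5 listed genes had both miR-99 KD libraries above both Scr libraries after TMM scaling, as did 24.5% of all genes. With libraries scaled by their totals alone, the groups overlapped in Rrm1 and Tk1. Dut (ENSMUSG00000027203), the enzyme that removes dUTP and so keeps uracil out of DNA, measured 326 and 432 CPM in miR-99 KD and 271 and 246 CPM in Scr. The difference came to 0.55 ± 0.18 on the log2 scale (SE, n = 2 per group; edgeR adjusted p 0.276), and miR-99 KD 2 lay well above miR-99 KD 1. Rrm2 (ENSMUSG00000020649), the S-phase subunit of ribonucleotide reductase, was at 853 and 700.4 CPM in miR-99 KD and 536 and 588 CPM in Scr. Here miR-99 KD 1 was the higher of its pair, and the log2 difference was 0.47 ± 0.16 with an edgeR adjusted p of 0.285. Rrm1, the large subunit, had 932 and 1067 CPM in miR-99 KD and 837 and 928 CPM in Scr, so miR-99 KD 1 and Scr 2 were almost equal. Tyms, thymidylate synthase, came to 205 and 213 CPM in miR-99 KD and 173 and 183 CPM in Scr. Tk1, the thymidine kinase of the salvage route, measured 143 and 132 CPM in miR-99 KD and 129 and 126 CPM in Scr. The sum of the 5 was 2458 and 2544 CPM in miR-99 KD and 1945 and 2071 CPM in Scr.

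The DNA polymerase and primase genes overlapped between groups in 5 of 5 after TMM scaling. Pole and Pold1, the catalytic subunits that extend the leading and lagging strands, had negative log2 differences of -0.30 ± 0.20 and -0.27 ± 0.21 (SE, n = 2 per group). Pold1 was at 315 and 247 CPM in miR-99 KD and 289 and 391 CPM in Scr, so the spread within groups was as wide as the gap. Pole had 82.1 and 115 CPM in miR-99 KD and 114 and 128 CPM in Scr. Prim1, the primase that lays down RNA primers, and Pola1 and Pola2 of polymerase alpha had log2 differences of 0.20, 0.02 and 0.07.

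Among the clamp and its loader the directions were mixed. Pcna (ENSMUSG00000027342), the clamp, came to 210.1 and 252 CPM in miR-99 KD and 200.1 and 182 CPM in Scr, without overlap. Rfc4, a loader subunit, measured 188 and 214 CPM in miR-99 KD and 152 and 167 CPM in Scr. Rfc2 of the same complex was at 344 and 351 CPM in miR-99 KD and 373 and 399 CPM in Scr. The log2 differences were 0.34 ± 0.14 for Rfc4 and -0.15 ± 0.13 for Rfc2 (SE, n = 2 per group), with edgeR adjusted p of 0.341 and 0.590. Rfc3 and Rfc5 overlapped, with log2 differences of 0.17 and -0.03. So did Fen1 and Lig1, the nuclease and ligase that finish lagging-strand fragments, and Tipin, which steadies the fork. Their log2 differences were 0.18 for Fen1, -0.04 for Lig1 and 0.03 for Tipin. Fen1 was the least abundant gene per length, at 23.0 and 15.6 CPM in miR-99 KD and 14.3 and 19.7 CPM in Scr.

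The genes that wrap new DNA into chromatin pointed both ways. Chaf1b (ENSMUSG00000022945), a subunit of the histone chaperone CAF-1, had 145 and 132 CPM in miR-99 KD and 168 and 182 CPM in Scr. Its log2 difference of -0.34 ± 0.13 (SE, n = 2 per group), a 0.79-fold level with an edgeR adjusted p of 0.319, was the lowest of the 39. Chaf1a, the large subunit of the same chaperone, came to 113 and 96.8 CPM in miR-99 KD and 119.8 and 137 CPM in Scr. Both subunits were lowest in miR-99 KD 2 and highest in Scr 2. Slbp, which binds the stem-loop of replication-dependent histone mRNAs, went the other way, at 598 and 584 CPM in miR-99 KD and 456 and 502 CPM in Scr. E2f1, a transcription factor that drives many of these genes, overlapped after TMM scaling, at 77.7 and 65.7 CPM in miR-99 KD and 74.4 and 98.7 CPM in Scr. With libraries scaled by their totals alone, E2f1 was lower in both miR-99 KD libraries.

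Levels per exon length spanned a wide range within the list. Mcm6 led at 292 CPM per kb in miR-99 KD and 289 CPM per kb in Scr, followed by Rrm2 at 280.2 CPM per kb in miR-99 KD and 203 CPM per kb in Scr. The 6 MCM2-7 genes, whose proteins form one ring, ran from 85.8 CPM per kb for Mcm2 to 291 CPM per kb for Mcm6 as means over 4 libraries. Pole averaged 8.83 CPM per kb in miR-99 KD and 10.8 CPM per kb in Scr, and Fen1 7.97 CPM per kb in miR-99 KD and 7.02 CPM per kb in Scr, the lowest of the list. Mcm6 ranked above 99.5% of all genes tested and Fen1 above 55.8%. Exon lengths join all annotated isoforms, and reads with several alignments were not counted, so genes with long rare exons or near-identical copies read low on this scale.

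**Figure D4:**
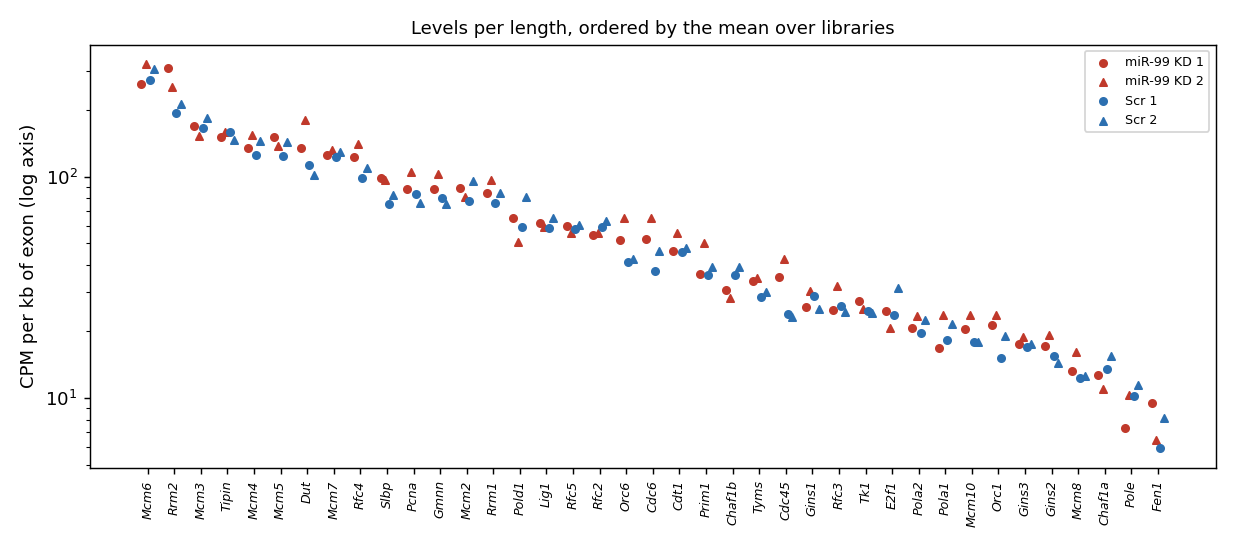
CPM per kb of exon (log axis) for each gene in each library, ordered by the mean over libraries, with red for miR-99 KD and blue for Scr. The order runs from Mcm6 at 291 CPM per kb to Fen1 at 7.49 CPM per kb, and the libraries of the 2 groups lie close together beside the range between genes.

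To set the genes against one another without TMM scaling, the 33 genes outside MCM2-7 were also expressed per 100 summed MCM2-7 counts of the same library. This measure was chosen after the values were seen. On this measure 16 of the 33 genes had both miR-99 KD libraries above both Scr libraries, against 21.7% of all genes tested, and 5 had both below, against 26.5%. Of the 16, 15 were also above by CPM. That is not separate support, because both measures rest on the same counts. The summed MCM2-7 level ran from 3919.8 to 4449 CPM, and some genes changed place. Gins3 and Tk1, above by CPM, overlapped on this measure. Pola2, which overlapped by CPM, lay above, and Pole and E2f1, which overlapped by CPM, lay below. Cdc45 had 2.99 and 3.44 counts per 100 MCM2-7 counts in miR-99 KD and 2.15 and 1.83 in Scr. Cdc6 had 6.62 and 7.85 in miR-99 KD and 4.99 and 5.40 in Scr. Rrm2 had 20.7 and 16.2 in miR-99 KD and 13.7 and 13.2 in Scr. Chaf1b had 3.52 and 3.05 in miR-99 KD and 4.29 and 4.10 in Scr. These ratios compare genes within a library, so they show unequal levels and not which of the genes differed.

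Which libraries carried the differences varied by gene. The highest library was miR-99 KD 2 for 23 of the 39 genes, miR-99 KD 1 for 5, Scr 2 for 10 and Scr 1 for 1. The lowest was Scr 1 for 19 genes. The median log2 difference was 0.19 without miR-99 KD 1, the library with high neutrophil and B cell genes, and 0.02 without miR-99 KD 2. The medians over all genes in these 2 fits were -0.046 and -0.019. Without Scr 1 the median of the 39 genes was 0.066, beside 0.026 over all genes. Without Scr 2 it was 0.15, beside -0.006 over all genes. In such fits the lone library takes the spread of the other group, so their counts of called genes are not read.

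Promoters were read for letters of 3 families of cell cycle sites, on both strands. The searched letters were TTTCGCGC, TTTGGCGC, TTTCCCGC and TTTGCCGC for E2F, CCAAT for NF-Y and TTTGAA for the cell cycle homology region (CHR). RefSeq windows from 250 bases before to 50 after a listed start were available for 32 of the 39 genes. The windows of Dut and E2f1 held 130 and 188 coding bases of their own gene before that start, by GENCODE M21, so they lie inside the gene and were left out, a choice made after the matches were seen. At least 1 of the E2F forms was present in 13 of the other 30 (43.3%), against 4.61% of tested genes treated alike. CCAAT was present in 19 (63.3%), against 42.5% of tested genes, and TTTGAA in 4 (13.3%), against 14.7%. By direction, the E2F letters were present in 4 of 14 genes with miR-99 KD above Scr, 0 of 2 below and 9 of 14 that overlapped. Windows on GRCm38.p6 are printed for the separated genes with the smallest p in each direction. These were Cdc45, Orc6 and Rrm2 above, with Dut left out, and Chaf1b and Chaf1a below. Cdc6, next above by p, is not printed, and its window held 1 E2F match. The window of Mcm6, chosen after its matches were seen, shows the E2F letters in a gene whose groups overlap. Capitals mark every match to the searched letters on either strand.
Cdc45 (chr16:18811923-18812222, minus strand): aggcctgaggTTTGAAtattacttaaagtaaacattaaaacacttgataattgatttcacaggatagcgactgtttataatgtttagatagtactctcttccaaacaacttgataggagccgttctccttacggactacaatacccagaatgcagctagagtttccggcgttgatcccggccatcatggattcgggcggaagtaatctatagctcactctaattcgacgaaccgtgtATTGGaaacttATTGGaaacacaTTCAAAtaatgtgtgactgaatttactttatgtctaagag
Orc6 (chr8:85299382-85299681, plus strand): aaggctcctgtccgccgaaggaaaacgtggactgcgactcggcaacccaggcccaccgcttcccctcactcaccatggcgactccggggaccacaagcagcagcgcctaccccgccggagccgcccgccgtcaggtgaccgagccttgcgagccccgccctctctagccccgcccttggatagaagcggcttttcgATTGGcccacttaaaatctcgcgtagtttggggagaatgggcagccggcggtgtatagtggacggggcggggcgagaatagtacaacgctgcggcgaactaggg
Rrm2 (chr12:24708004-24708303, plus strand): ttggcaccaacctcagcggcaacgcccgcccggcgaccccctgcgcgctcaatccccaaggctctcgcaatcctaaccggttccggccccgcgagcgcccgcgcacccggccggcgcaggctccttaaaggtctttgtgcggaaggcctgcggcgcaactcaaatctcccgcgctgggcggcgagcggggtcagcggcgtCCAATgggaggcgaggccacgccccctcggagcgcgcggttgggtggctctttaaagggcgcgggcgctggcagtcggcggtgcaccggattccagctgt
Chaf1b (chr16:93883651-93883950, plus strand): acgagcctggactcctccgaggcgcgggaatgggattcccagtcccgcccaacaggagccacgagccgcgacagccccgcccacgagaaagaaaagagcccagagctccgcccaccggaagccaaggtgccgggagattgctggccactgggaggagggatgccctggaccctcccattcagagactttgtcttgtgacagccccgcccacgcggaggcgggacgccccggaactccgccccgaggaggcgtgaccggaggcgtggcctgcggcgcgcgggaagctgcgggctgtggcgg
Chaf1a (chr17:56040166-56040465, plus strand): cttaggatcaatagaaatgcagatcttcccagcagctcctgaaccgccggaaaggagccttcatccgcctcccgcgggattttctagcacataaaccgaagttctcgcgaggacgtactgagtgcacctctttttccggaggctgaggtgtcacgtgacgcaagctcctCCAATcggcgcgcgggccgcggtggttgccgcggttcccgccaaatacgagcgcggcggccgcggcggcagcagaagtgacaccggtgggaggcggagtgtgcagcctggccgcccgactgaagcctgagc
Mcm6 (chr1:128359656-128359955, minus strand): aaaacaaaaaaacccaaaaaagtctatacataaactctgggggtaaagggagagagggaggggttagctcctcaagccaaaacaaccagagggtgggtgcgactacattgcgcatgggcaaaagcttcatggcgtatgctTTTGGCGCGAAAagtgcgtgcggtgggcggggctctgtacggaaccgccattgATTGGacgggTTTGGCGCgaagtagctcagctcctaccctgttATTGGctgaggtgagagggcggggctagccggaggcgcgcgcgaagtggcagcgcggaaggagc
Cdc45 held 0 E2F matches, 2 CCAAT matches and 2 TTTGAA matches, and Rrm2, Orc6 and Chaf1a held 1 CCAAT match each. Chaf1b held 0 of any kind. Mcm6 held 3 E2F matches, 2 of which overlap, and 2 CCAAT matches. A match describes letters and not binding, and no match says only that these letters are not in the window.

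The rest of the replication machinery was read from lists chosen by function. Their counts stand against 24.5% of all genes with both miR-99 KD libraries above both Scr libraries and 26.0% with both below. For DESeq2 the shares are 1.68% of all genes higher and 4.16% lower. Of 41 other replisome and licensing genes, 13 (31.7%) had both miR-99 KD libraries above both Scr libraries and 6 (14.6%) below, with a median log2 difference of 0.10. edgeR called 0, and DESeq2 called Donson, a helicase activation factor, higher and Ctc1, part of a telomere and primase cofactor, lower. Donson measured 89.1 and 86.1 CPM in miR-99 KD and 59.1 and 58.3 CPM in Scr. Ctc1 had 91.0 and 72.2 CPM in miR-99 KD and 119.9 and 133 CPM in Scr. Mcm9, a relative of Mcm8, was at 28.9 and 21.3 CPM in miR-99 KD and 38.3 and 40.9 CPM in Scr. Orc4, an origin recognition subunit, had 119.0 and 150.2 CPM in miR-99 KD and 86.4 and 102 CPM in Scr. Among 12 E2F and pocket protein genes 4 (33.3%) lay above and 4 (33.3%) below. Their log2 differences ran from -0.42 to 0.53 with a median of 0.08, 7 positive and 5 negative. The 4 genes named next had the smallest edgeR p of this list, and all 4 were higher. DESeq2 called E2f4 and Tfdp1, an E2F and its binding partner, higher. E2f4 had 566 and 591 CPM in miR-99 KD and 391 and 413 CPM in Scr. Tfdp1 had 337 and 346 CPM in miR-99 KD and 252 and 253 CPM in Scr. Rb1, the pocket protein that restrains E2F factors, came to 128 and 139 CPM in miR-99 KD and 102 and 94.3 CPM in Scr, and E2f8, a repressor E2F, had a log2 difference of 0.33.

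Directions were mixed among the other 27 nucleotide supply genes. Of these, 8 (29.6%) lay above and 5 (18.5%) below, near the shares of all genes (24.5% and 26.0%), with a median log2 difference of 0.08, and DESeq2 called 0 higher and 2 lower. The lower ones were Shmt1, a one-carbon enzyme that feeds thymidylate synthesis, and Ctps2, a CTP synthase. Shmt1 measured 68.2 and 59.2 CPM in miR-99 KD and 93.0 and 112 CPM in Scr. Ctps2 had 84.7 and 72.7 CPM in miR-99 KD and 116 CPM in both Scr libraries. Dck, a deoxycytidine kinase of salvage, was at 312 and 282 CPM in miR-99 KD and 220.2 and 228 CPM in Scr, and Impdh1, of guanine nucleotide synthesis, had a log2 difference of -0.61. Of 14 genes of chromatin assembly and maintenance methylation, 5 (35.7%) lay above and 2 (14.3%) below. Asf1b, a histone chaperone that hands histones to CAF-1, had 248 and 184 CPM in miR-99 KD and 139 and 133 CPM in Scr and was called by DESeq2, opposite in sign to both CAF-1 subunits. Dnmt1, the maintenance methyltransferase, came to 437 and 373 CPM in miR-99 KD and 490.3 and 584 CPM in Scr. Hat1, a histone acetyltransferase, had a log2 difference of 0.44 and Cdca7l one of -0.42. Of 20 checkpoint and fork repair genes, 5 lay above and 4 below (25% and 20%), and neither tool called any. Chek1, the checkpoint kinase, measured 75.5 and 87.5 CPM in miR-99 KD and 51.8 and 59.8 CPM in Scr. Brca2, which protects stalled forks, had 78.6 and 102 CPM in miR-99 KD and 124 and 126 CPM in Scr. Hus1 and Rad17, of the checkpoint clamp and its loader, had log2 differences of 0.61 and 0.59.

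Of 20 listed mitosis genes, 10 had both miR-99 KD libraries above both Scr libraries, against 24.5% of all genes, and 0 had both below, against 26.0%, with a median log2 difference of 0.18. Mki67, a proliferation marker, was at 480.5 and 546 CPM in miR-99 KD and 405 and 325 CPM in Scr. Ube2c, a mitotic ubiquitin enzyme that DESeq2 called higher, had 268 and 229 CPM in miR-99 KD and 174 and 155 CPM in Scr. Cdk1, the mitotic kinase, and Cenpe, a kinetochore motor, had log2 differences of 0.45 and 0.35. Over the same libraries 11 of 15 erythroid genes (73.3%) lay above and 0 below, and 8 of 15 stem cell genes (53.3%) lay below and 1 above, beside the same 24.5% and 26.0% of all genes. Whether the replication genes differed apart from these lists was not tested.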

How the data were processed

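RNA of sorted cells was extracted with Trizol LS and amplified by SMARTer, per the labels' protocols. The authors deposited 1 file per library, each with raw counts for Ensembl genes. The submitters' processing notes name STAR, Picard, HTSeq, DESeq2 and mm9. Versions, annotation and strand use: not given in the sources used here. Rows that name no gene were dropped before scaling (of aligned reads, 8.89% to 14.8% with no feature and 19.2% to 23.4% with several alignments). Symbols (44585 of 45232 rows) and exon lengths came from GENCODE M21 and printed sequences from RefSeq on GRCm38.p6, a later build than mm9, so printed coordinates are not those of the counting.

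The main test was edgeR 4.0.16 (quasi-likelihood, filterByExpr, TMM, Benjamini-Hochberg) in R 4.3.3, fitted to all genes. An SE is the log2 difference divided by the square root of the F statistic. DESeq2 1.42.0 left 2674 genes without an adjusted p. The other alternatives were limma-voom (limma 3.58.1), other scalings and filters, a replicate block and leaving out each library. The labels give no batch, so p-values measure the spread between 2 mice per group. Genes, lists and alternatives were chosen with earlier results of these data known. The naming rule gives every listed gene, in full where groups separate or DESeq2 calls it, and up to 4 genes of each other list by p.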

Additional observations from a re-analysis of the deposited data

How the results depend on the processing

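Over all genes, edgeR called 0, DESeq2 896, edgeR without a filter 1064, and edgeR with 1 library left out 0 to 1013 (437 without miR-99 KD 2). Of the 39 replication genes, 1 was called with DESeq2 and 1 without a filter, Cdc45 both times. Their median log2 difference was 0.023 with libraries scaled by totals, where the median of all genes was -0.07, and 0.024 to 0.19 without each library. Genes among the 39 at an unadjusted edgeR p under 0.05 numbered 6, and 1 to 12 with 1 library left out (12 without miR-99 KD 1). In the same fits DESeq2 called 0 to 4. With totals alone 8 genes had both miR-99 KD libraries below both Scr libraries. The DESeq2 fits with a block or a library left out, and the other scalings of the separation counts, were added after the data were seen. With all 32 promoter windows the share with E2F letters was 40.6%. For these changes the cause was not tested.

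Replicate numbers were not used as pairs: deviations of same-numbered libraries correlated at 0.11 over all tested genes, from 2 pairs. With the replicate block edgeR called 0 of all genes and 0 of the 39, with a median log2 difference of 0.11, and DESeq2 called 0 of the 39.

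Signs turned only in genes whose groups overlapped, and in Gins3. Scaled by totals, the log2 difference was -0.074 for Mcm6, -0.060 for Mcm7, -0.035 for Gins1, -0.015 for Gins3, -0.062 for Pola1, -0.016 for Pola2 and -0.062 for Tipin. Without a filter it was -0.014 for Mcm6 and -0.0046 for Pola1. With a filter at 10 CPM it was -0.017 for Mcm6, -0.0017 for Mcm7, -0.0057 for Pola1 and -0.0052 for Tipin. Without each library in turn the ranges were -0.20 to 0.13 for Mcm2, -0.041 to 0.19 for Mcm4, -0.021 to 0.20 for Mcm5, -0.15 to 0.16 for Mcm6, -0.037 to 0.061 for Mcm7, -0.069 to 0.16 for Gins1, -0.019 to 0.25 for Cdt1, -0.016 to 0.34 for Rfc3, -0.093 to 0.024 for Rfc5, -0.24 to 0.25 for Pola1, -0.051 to 0.15 for Pola2, -0.045 to 0.41 for Prim1, -0.12 to 0.44 for Fen1, -0.14 to 0.017 for Lig1 and -0.052 to 0.061 for Tipin. The other 23 genes kept their sign in every setting run.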

Other observations

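The count files carry pasted blocks of totals under working names below the gene rows. The block in the file of Scr 1 is named Scr-2 and its total of 32350590 equals that library. The blocks in the files of miR-99 KD 1 and miR-99 KD 2 are named Zip99a-2 and Zip99a-1, with totals of 27295197 and 27314881 that equal those libraries. A further block in the file of miR-99 KD 2, named Scr-1, gives a total of 29793890, which equals none of the 4 libraries analysed here. Groups and numbers in the text follow the labels.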
